A study of Mus musculus with 18 samples.

Results

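The genes described here encode the non-collagen part of the extracellular matrix: 48 matrix glycoproteins, proteoglycans and associated secreted proteins, taken by name from the 23951 genes of the deposited expression table. The names were given as a list. All 48 were found and all 48 passed the filter on low values. They were grouped by role into 15 adhesive and matricellular glycoproteins, 18 proteins of elastic fibres and microfibrils, 3 linkers of the basement membrane, 9 proteoglycans and leucine-rich repeat proteins, and 3 others (the collagen processing enhancers Pcolce and Pcolce2, and Mgp).

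RNA was sequenced from cells sorted from mouse pancreas and pancreatic tumors, in 18 libraries of 5 groups. Normal pancreatic fibroblasts (NPF, n = 3) came from K-Ras+/+ mice that carried Elas-tTA/tetO-Cre and the reporter Rosa26+/EYFP. Cancer-associated fibroblasts (WT_CAF, n = 5) and tumor cells (WT_tumor, n = 4) came from mice that were K-Ras+/LSLG12Vgeo and Trp53lox/lox and had those same driver and reporter alleles. The knockout groups (KO_CAF, n = 3, and KO_tumor, n = 3) had all of these alleles and were Saa3-/- as well, so every group shares the driver and the reporter. The elastase promoter of the driver is active in acinar cells of the pancreas, and NPF differ from WT_CAF in the genotype of the mouse as well as in the presence of a tumor. Nothing in the labels gives the sort markers, the age of the mice or which libraries share an animal.

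Fibroblasts secrete most of the interstitial matrix of connective tissue. Fibronectin and the matricellular glycoproteins connect cells to the matrix through integrins, fibrillins and their partners form the microfibrils on which elastin is laid down, and the small leucine-rich proteoglycans bind collagen fibrils and set their diameter. The latent TGF-beta binding proteins tether TGF-beta, a growth factor held in the matrix in inactive form, to these microfibrils, and pancreatic ductal cancers are known for an abundant matrix of this kind.

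Values are FPKM, which scale fragments by transcript length and library size, so they compare genes per length, but the number of fragments behind a library is unknown. Differences were tested with limma on log2(FPKM + 1) over 13369 genes, with the library format as a term, and a gene passed the test at a Benjamini-Hochberg adjusted p under 0.05. Differences are printed as log2 difference ± standard error. Saa3 stood at 0 to 1.85 FPKM in the 6 knockout libraries and at 2.75 to 4278 in the 12 others. It was at 7.24 FPKM in WT_CAF 1 and at 892, 4278, 1182 and 2270 in WT_CAF 2 to 5. In WT_tumor 1 to 4 it was at 4.10, 2.75, 106 and 3.13 FPKM, and in NPF 1 to 3 at 331, 5.32 and 3.13. The 7 fibroblast markers (Pdgfra, Pdgfrb, Thy1, Pdpn, Fap, Twist1 and Tcf21) summed to 231 to 573 FPKM in the fibroblast libraries other than WT_CAF 1, and the 9 epithelial markers to 2925 to 8562 FPKM in tumor cells against 2.62 to 347 in those fibroblasts. Cldn4 and Cldn7 were at 0 in NPF 1, and Cldn4 and Esrp1 in KO_CAF 2. The library labelled WT_CAF 1 stood apart, with 75.8 FPKM of fibroblast markers and 627 FPKM of epithelial ones. The epithelial sum came mainly from Krt8, Krt18 and Krt19 (252, 245 and 119 FPKM), and 4 of the 9 epithelial markers reached 1 FPKM. Epcam (0.22 FPKM), Krt7, Cldn4, Cldn7 and Esrp1 were lower there than in WT_CAF 2 to 5. WT_tumor 3 held 6 of the 7 fibroblast markers at 1 FPKM or more, where the other WT_tumor libraries held 1, and in WT_tumor 4 Epcam stood at 2.60 FPKM against 129 to 549. Acinar markers summed to 1083 to 40794 FPKM in NPF, to 24.9 to 505 in WT_CAF and to 13.0 to 129 in KO_CAF. In tumor cells they summed to 13.1 to 9926 FPKM in WT_tumor and to 9.02 to 20555 in KO_tumor. The part of these differences in the results was not tested, and the results that rest on WT_CAF 1, WT_tumor 3 or WT_tumor 4 are given with and without them.

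**Figure D1:**
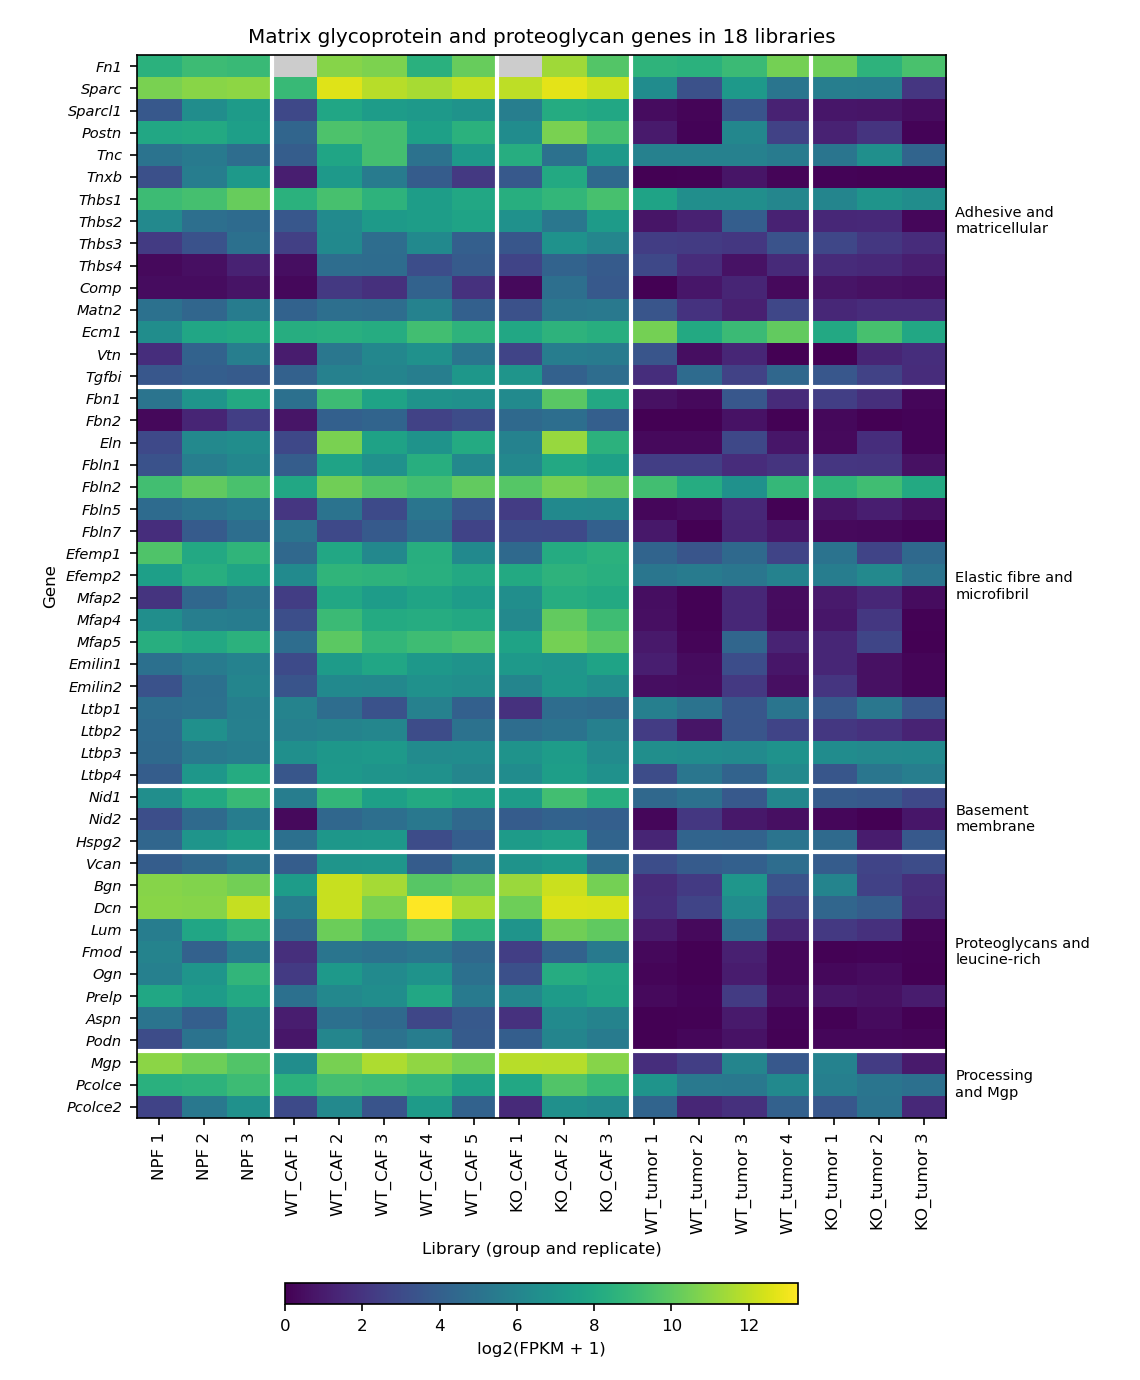
Levels of the 48 matrix genes as log2(FPKM + 1), 1 row per gene grouped by role, 1 column per library grouped by sample group; grey marks the 2 Fn1 values treated as failed estimates. The tumor cell columns are dark for most genes, while Fn1, Ecm1, Fbln2, Ltbp3 and Thbs1 stay bright in all 7 of them, and WT_CAF 1 is darker than the other fibroblast columns.

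The 48 genes together made up 1.29%, 2.83% and 3.27% of the summed FPKM of the NPF libraries. NPF 1 had the largest total, 919859 FPKM against 454838 and 519833 in NPF 2 and 3. The 48 genes alone summed to 11897, 12854 and 16975 FPKM in NPF 1 to 3. In WT_CAF they made up 0.702%, 5.27%, 3.30%, 4.96% and 3.91% (replicates 1 to 5), and in KO_CAF 3.08%, 6.87% and 5.35%. In tumor cells they made up 0.748%, 0.292%, 0.428% and 0.753% of the WT_tumor libraries and 0.463%, 0.513% and 0.334% of the KO_tumor libraries. All 7 tumor cell libraries lay below all fibroblast libraries except WT_CAF 1. These sums, and the counts that follow, take Fn1 as 0 in WT_CAF 1 and KO_CAF 1, where the listed 0 is a failed estimate. The shares of those libraries are therefore too low, and the place of WT_CAF 1 among the tumor cells is uncertain. Between 45 and 48 of the genes reached 1 FPKM in the fibroblast libraries other than WT_CAF 1 (42 there), against 26 to 42 in WT_tumor and 25 to 35 in KO_tumor.

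The make-up of the group differed between the cell types as well as its amount. By group mean Dcn, Sparc, Bgn and Mgp had the highest levels in all 3 fibroblast groups, and the 3 most abundant genes of a library held 43.3% to 64.0% of the summed FPKM of the 48. In both tumor cell groups the highest means were those of Ecm1, Fn1 and Fbln2, and the 3 most abundant genes held 55% to 80.0%. Proteoglycans and leucine-rich repeat proteins made up 25.8% to 52.0% of the sum in the fibroblast libraries other than WT_CAF 1, where they made up 10%. In tumor cells they made up 0.426% to 11.8%, with the highest share in WT_tumor 3. The adhesive and matricellular glycoproteins made up 20.8% to 44.8% of the sum in fibroblasts and 56.1% to 72.8% in tumor cells. Fn1, an adhesive glycoprotein, counts as 0 here in WT_CAF 1 and KO_CAF 1. The adhesive shares of these libraries are thus too low, and those of the other roles too high. The shares of their 3 most abundant genes are affected as well.

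**Figure D2:**
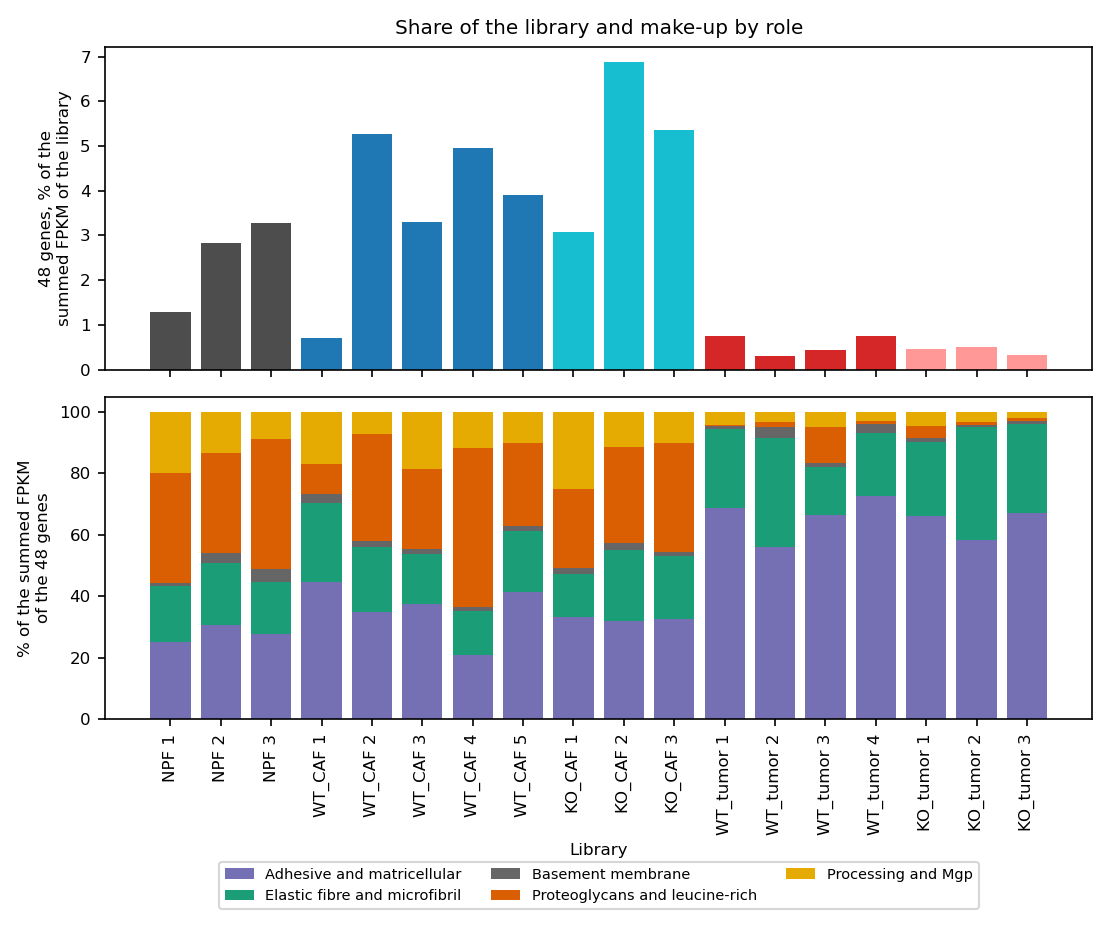
Upper bars show the summed FPKM of the 48 genes as a percent of the library, and lower stacked bars the share of that sum by role, for the 18 libraries. Proteoglycans (orange) take 25.8% to 52.0% in the fibroblast libraries other than WT_CAF 1 and at most 11.8% in tumor cells, where adhesive glycoproteins (violet) take 56.1% to 72.8%.

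In the comparison of tumor cells with tumor fibroblasts most of these genes were lower in the tumor cells. In Saa3-intact cells, 35 of the 48 genes were lower in WT_tumor than in WT_CAF and none was higher, against 12.5% lower and 9.05% higher among all genes tested. Their median difference was -3.37, against 0.07 over all genes. In the cells lacking Saa3, which share no library with the first comparison, 37 of the 48 were lower in KO_tumor than in KO_CAF and none was higher, against 15.4% and 13% of all genes, and the median difference was -4.06 against 0.05. At an unadjusted p under 0.05, 1 of the 48 was higher in WT_tumor (Ecm1, against 17.2% of all genes) and 0 in KO_tumor (20.1%). In a sorted bulk sample, fewer cells of a type and less RNA per cell cannot be told apart.

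The libraries of both groups did not overlap for 22 of the 48 genes, lower in WT_tumor (7.01% of all genes), and for 36 without WT_CAF 1 (16.1%). For KO_tumor and KO_CAF the groups did not overlap for 39 genes (21.3%). Without WT_CAF 1 the test gave 37 lower genes in WT_tumor (15% of all genes). With the format term WT_CAF 1 does not enter these differences, and their median stayed at -3.37. Leaving it out changes only the estimated spread, so this fit cannot show how the differences depend on WT_CAF 1. Without WT_CAF 1 and the format term the median was -3.67. Without WT_CAF 1, WT_tumor 3 and WT_tumor 4 the test gave 35 lower genes (11.5%). The count was 20 without WT_CAF 3 (5.67% of all genes), with a median difference that stayed between -3.69 and -3.36 over all single libraries left out. Within the libraries with a 6-base index 18 genes were lower in WT_tumor (median -3.89, against 5.51% of all genes) and 28 in KO_tumor (median -3.61, against 8.78%). Within those with a 16-base index, where 1 residual degree of freedom remained, 0 passed in either comparison (0% of all genes), with medians of -3.35 and -4.56.

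The calls were not equally firm. Of the 35 genes lower in WT_tumor, 19 passed in every fit that left out 1 library of the 2 groups. The 16 others lost the call in at least 1 such fit and were Postn, Tnxb, Matn2, Vtn and Tgfbi of the adhesive class, Eln, Fbln5, Fbln7 and Ltbp2 of the elastic fibre class, Nid1 and Hspg2, Vcan, Ogn, Aspn and Podn, and Pcolce. Of the 37 genes lower in KO_tumor, 33 passed in every such fit, and Tnxb, Thbs3, Vtn and Tgfbi did not. Over all genes, 1671 were lower in WT_tumor with all libraries and 758 to 2003 in those fits. In KO_tumor these numbers were 2057 and 1308 to 1956. Without the format term 35 genes were lower in WT_tumor (11.8% of all genes) and 35 in KO_tumor (12.6%), with calls lost for Vcan and Hspg2 in the first and for Hspg2 and Vtn in the second, and calls gained for Thbs1 and Efemp1 in the first.

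**Figure D3:**
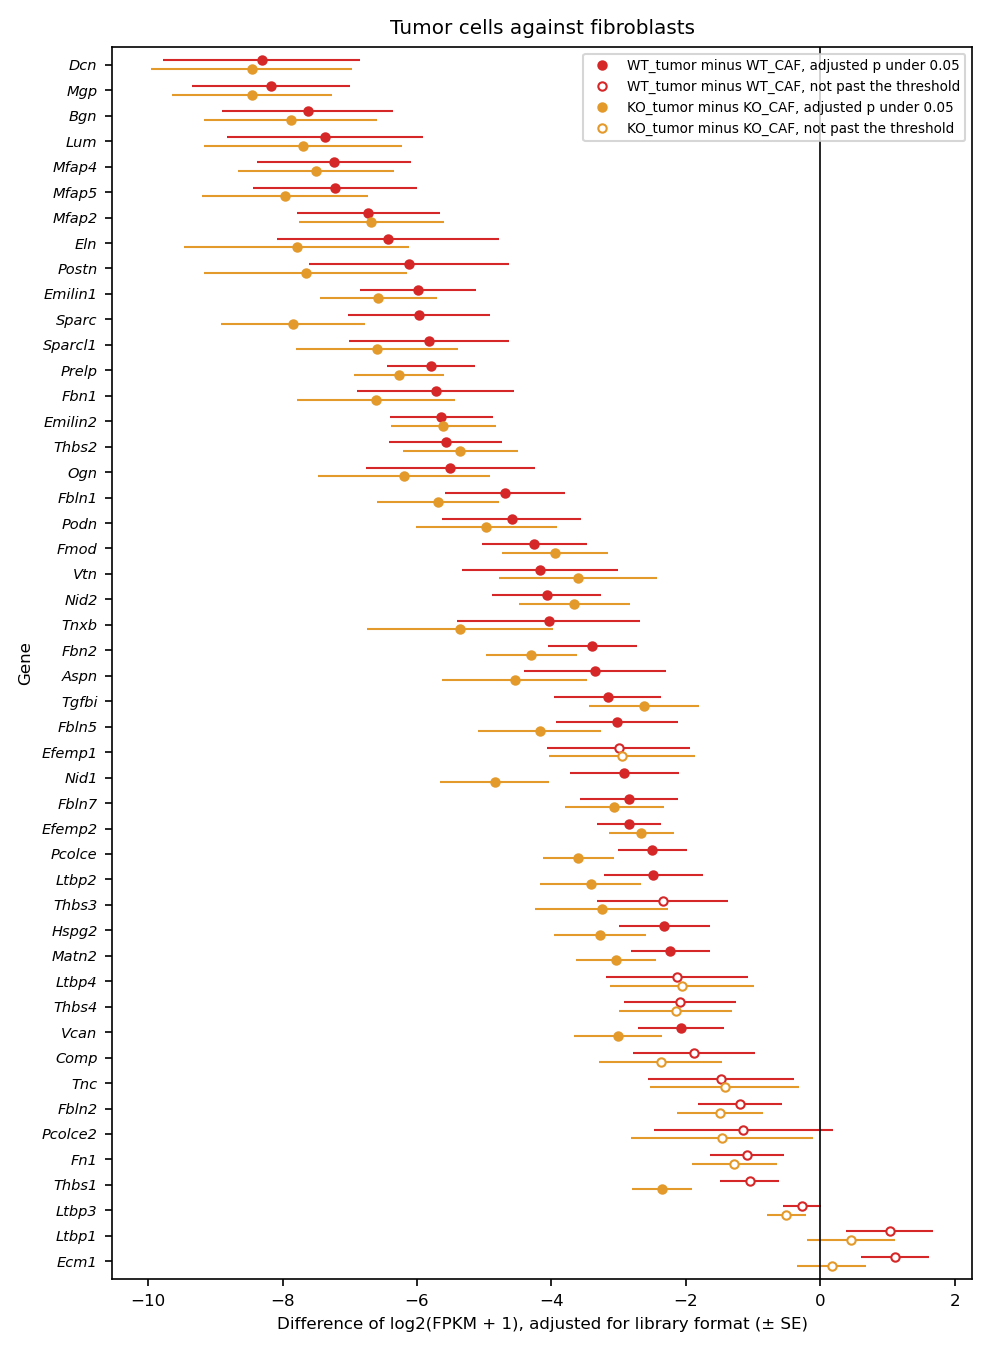
Difference of log2(FPKM + 1) between tumor cells and fibroblasts for each of the 48 genes, adjusted for library format, with standard errors; red compares WT_tumor with WT_CAF, orange KO_tumor with KO_CAF, and filled points passed the test. Most points lie left of 0, down to -8.46 for Dcn, and only Ltbp1 and Ecm1 lie right of it in both comparisons.

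All 9 proteoglycans and leucine-rich repeat proteins were lower in tumor cells in both comparisons. Dcn (decorin), a collagen-binding proteoglycan, stood at 49.3, 4644, 1574, 9938 and 2962 FPKM in WT_CAF 1 to 5 and at 1321, 5871 and 5619 in KO_CAF. In WT_tumor it stood at 2.28, 5.53, 86.5 and 5.20 FPKM, and in KO_tumor at 19.9, 14.2 and 2.15. WT_CAF 1 lay below WT_tumor 3, and no other fibroblast library overlapped with tumor cells. Dcn fell by 8.31 ± 1.47 in WT_tumor (adjusted p = 0.00192) and by 8.46 ± 1.49 in KO_tumor (adjusted p = 0.00142).

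Prelp, a leucine-rich repeat protein that anchors basement membranes to connective tissue, had the smallest p of the 48 genes in both comparisons. It stood at 28.9, 73.2, 88.8, 247 and 43.4 FPKM in WT_CAF, at 68.4, 153 and 217 in KO_CAF, at 0.262, 0.103, 3.93 and 0.406 in WT_tumor and at 0.659, 0.503 and 1.05 in KO_tumor. Every fibroblast library, WT_CAF 1 included, lay above every tumor cell library. Prelp fell by 5.79 ± 0.65 (adjusted p = 0.000204) and by 6.27 ± 0.66 (adjusted p = 8.9e-05).

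Bgn (biglycan), a relative of decorin, stood at 159 to 4689 FPKM in the WT_CAF and KO_CAF libraries with differences of -7.63 ± 1.27 in WT_tumor and -7.88 ± 1.29 in KO_tumor, both past the threshold. Its tumor cell values were 2.10, 3.80, 126 and 9.37 FPKM in WT_tumor and 62.1, 4.95 and 2.42 in KO_tumor, so that WT_tumor 3 and KO_tumor 1 stood above the other tumor libraries. Lum (lumican), which regulates collagen fibril assembly, was lower, at -7.37 ± 1.46 and -7.70 ± 1.48. The smallest falls of the class were those of Vcan (versican), a large chondroitin sulfate proteoglycan, at 2.07 ± 0.64 and 3.01 ± 0.65. Without the format term Vcan did not pass in WT_tumor (-1.43 ± 0.67, adjusted p = 0.145). Vcan stayed between 5.67 and 26.3 FPKM in all 7 tumor cell libraries, where Fmod, Ogn, Aspn and Podn did not exceed 1.26.

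Of the 18 proteins of elastic fibres and microfibrils, 13 were lower in tumor cells in each comparison. Mfap4, a microfibril-associated glycoprotein, stood at 8.11, 529, 280, 295 and 253 FPKM in WT_CAF and at 75.0, 1093 and 568 in KO_CAF, against 0.449, 0.067, 1.76 and 0.320 in WT_tumor and 0.721, 3.43 and 0.0465 in KO_tumor. No tumor cell library reached a fibroblast one. Mfap4 fell by 7.23 ± 1.15 (adjusted p = 0.00106) in WT_tumor, and in KO_tumor it fell by 7.50 ± 1.16 (adjusted p = 0.000721). Mfap2 and Mfap5, a pair of small microfibril glycoproteins that bind fibrillin, fell by 6.73 ± 1.07 and by 7.22 ± 1.21 in WT_tumor and were also lower in KO_tumor, at -6.68 ± 1.08 and -7.97 ± 1.23.

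Emilin1 and Emilin2, elastic fibre interface proteins, were low in every tumor cell library. Emilin1 stood at 1.19, 0.304, 7.81 and 0.733 FPKM in WT_tumor and at 1.68, 0.496 and 0.134 in KO_tumor, against 7.0 in WT_CAF 1 and 113 to 233 in the 7 other tumor fibroblast libraries. WT_CAF 1 lay just below WT_tumor 3, and no other library overlapped. Emilin1 fell by 5.99 ± 0.86 and by 6.57 ± 0.87. Emilin2 fell by 5.64 ± 0.77 and 5.61 ± 0.78. The fibrillins Fbn1 and Fbn2, whose polymers form the microfibril, fell by 5.72 ± 1.16 and 3.39 ± 0.66 in WT_tumor and by 6.61 ± 1.18 and 4.30 ± 0.67 in KO_tumor. Eln, elastin itself, ranged from 0.10 to 6.31 FPKM in tumor cells and from 59.0 to 2365 in tumor fibroblasts other than WT_CAF 1, and fell by 6.43 ± 1.65 and 7.79 ± 1.68. Fbln1, a fibulin that binds fibronectin and elastin, fell by 4.69 ± 0.90 and 5.69 ± 0.91. Efemp2, a fibulin needed for elastin crosslinking, stood at 33.9 to 76.1 FPKM in tumor cells and fell by 2.84 ± 0.48 (adjusted p = 0.00148) and 2.66 ± 0.49 (adjusted p = 0.0017).

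The 4 latent TGF-beta binding proteins differed among themselves. Ltbp2, the member of the family that does not bind latent TGF-beta, was lower in tumor cells by 2.48 ± 0.74 (adjusted p = 0.0285) and 3.42 ± 0.75 (adjusted p = 0.00499). Ltbp3 stood at 96.5, 129, 137, 82.8 and 87.7 FPKM in WT_CAF and at 112, 162 and 82.4 in KO_CAF, and its tumor cell values of 91.9, 86.1, 81.6 and 109 in WT_tumor and 87.6, 75.9 and 78.6 in KO_tumor overlapped with these. Its differences of -0.27 (95% interval -0.89 to 0.34) and -0.50 (-1.13 to 0.12) did not pass the test. The ratio of Ltbp3 to Ltbp2 was 1.53 to 11 in tumor fibroblast libraries and 7.96 to 121 in tumor cells, with WT_CAF 4 (11) above WT_tumor 3 (7.96). Ltbp1, which binds fibrillin and fibronectin, had positive differences of 1.03 ± 0.65 and 0.45 ± 0.66 that did not pass, at 10.7 to 52.6 FPKM in tumor cells and 2.66 to 59.8 in tumor fibroblasts. With the format term, the first difference does not use WT_CAF 1 and 2. Over all libraries the mean log2(FPKM + 1) of Ltbp1 was 4.87 in WT_tumor and 4.79 in WT_CAF. Ltbp4 had differences of -2.13 ± 1.05 and -2.06 ± 1.07, both with adjusted p = 0.162.

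Among the 15 adhesive and matricellular glycoproteins, 8 were lower in WT_tumor and 10 in KO_tumor. Sparc, a collagen-binding matricellular protein, was the most abundant of them in fibroblasts, at 499, 6416, 3644, 3009 and 4205 FPKM in WT_CAF and 4004, 6933 and 4718 in KO_CAF. In WT_tumor it stood at 88.5, 8.95, 145 and 35.0 FPKM, and in KO_tumor at 49.7, 48.7 and 3.26, all below every fibroblast library. Sparc fell by 5.97 ± 1.05 (adjusted p = 0.00186) and 7.85 ± 1.07 (adjusted p = 0.000338).

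Thbs2, a thrombospondin that inhibits blood vessel growth, stood at 11, 80.3, 150, 169 and 209 FPKM in WT_CAF and at 104, 38.1 and 154 in KO_CAF. In tumor cells it stood at 0.712, 1.29, 14.9 and 1.39 FPKM (WT_tumor) and 1.77, 1.88 and 0.166 (KO_tumor), so that the only overlap was between WT_tumor 3 and WT_CAF 1. It fell by 5.57 ± 0.84 (adjusted p = 0.000869) and 5.35 ± 0.86 (adjusted p = 0.000859). Thbs1, the related thrombospondin that activates latent TGF-beta, stayed at 65.6 to 207 FPKM in tumor cells against 169 to 682 in tumor fibroblasts. Its fall of 2.36 ± 0.44 in KO_tumor passed the test (adjusted p = 0.00204), while its difference of -1.05 ± 0.44 in WT_tumor did not (adjusted p = 0.0999), although it did without the format term (-1.63, adjusted p = 0.0121). The difference between these values, -1.31 ± 0.62, had the smallest p of the 48 genes in the test of the difference itself (adjusted p = 1). Thbs3 likewise passed in KO_tumor only, at -3.25 ± 1.0 against -2.35 ± 0.98, with a difference between these of -0.91 ± 1.40. Postn (periostin), Sparcl1, Tnxb, Matn2, Vtn and Tgfbi were lower in both comparisons, with differences between -7.66 (Postn in KO_tumor) and -2.23 (Matn2 in WT_tumor). Vtn (vitronectin) was listed at 0 in WT_tumor 4, and without the format term it did not pass in KO_tumor (adjusted p = 0.0633).

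All 3 basement membrane linkers were lower in both comparisons. Nid1 (nidogen), which bridges laminin and collagen IV, fell by 2.91 ± 0.80 in WT_tumor and by 4.85 ± 0.82 in KO_tumor, from 48.4 to 618 FPKM in tumor fibroblasts to 12.1 to 69.7 in WT_tumor and 6.58 to 13.1 in KO_tumor. Hspg2 (perlecan), a heparan sulfate proteoglycan, fell by 2.32 ± 0.67 and 3.27 ± 0.68, and Nid2 was lower at -4.07 ± 0.81 and -3.66 ± 0.83. Without the format term Hspg2 did not pass in either comparison, at -1.46 ± 1.07 (adjusted p = 0.359) and -3.27 ± 1.30 (adjusted p = 0.0829).

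Mgp, an inhibitor of matrix calcification, stood at 88.8, 1506, 3240, 2177 and 1465 FPKM in WT_CAF and at 3740, 3605 and 1898 in KO_CAF, against 2.35, 4.53, 65.6 and 11.4 in WT_tumor and 59.2, 4.11 and 0.942 in KO_tumor. The groups did not overlap. Mgp fell by 8.17 ± 1.17 (adjusted p = 0.000705) in WT_tumor, and in KO_tumor it fell by 8.45 ± 1.19 (adjusted p = 0.000428). Pcolce, which speeds removal of the procollagen C-propeptide, fell by 2.50 ± 0.51 and 3.60 ± 0.52, and its relative Pcolce2 did not pass, at -1.15 ± 1.33 and -1.46 ± 1.35.

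Ecm1, Fn1, Fbln2 and Tnc did not pass the test in either comparison. Ecm1, a secreted glycoprotein that binds perlecan and fibulin, stood at 1436, 271, 537 and 1087 FPKM in WT_tumor and at 254, 670 and 252 in KO_tumor, within or above its 244 to 617 FPKM in tumor fibroblasts. Its differences of 1.11 ± 0.50 (adjusted p = 0.128) and 0.17 ± 0.51 (adjusted p = 0.834) did not pass, although the first did without WT_tumor 2 (adjusted p = 0.0439). Fn1 (fibronectin), an integrin ligand and scaffold for other matrix proteins, stood at 393, 352, 538 and 1437 FPKM in WT_tumor and at 1292, 388 and 705 in KO_tumor. In fibroblasts it stood at 1855, 1610, 341 and 1158 in WT_CAF 2 to 5 and at 2629 and 851 in KO_CAF 2 and 3, and it was listed at 0 in WT_CAF 1 and KO_CAF 1. Those zeros were treated as failed estimates and left out, and the differences of -1.09 ± 0.55 and -1.28 ± 0.63 did not pass. Fbln2, a fibulin of vessels and basement membranes, stood at 103 to 611 FPKM in tumor cells and at 249 to 1506 in tumor fibroblasts, with differences of -1.19 ± 0.63 and -1.49 ± 0.64 that did not pass. Tnc (tenascin C), an adhesion-modulating glycoprotein, stood at 18.5 to 97.7 FPKM in tumor cells and at 14.3 to 638 in tumor fibroblasts (-1.48 ± 1.09 and -1.42 ± 1.11, not passing). The ratio of Ecm1 to Sparc was 3.72 to 77.3 in tumor cells and 0.0521 to 0.613 in all fibroblast libraries, with the highest fibroblast value in WT_CAF 1.

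**Figure D4:**
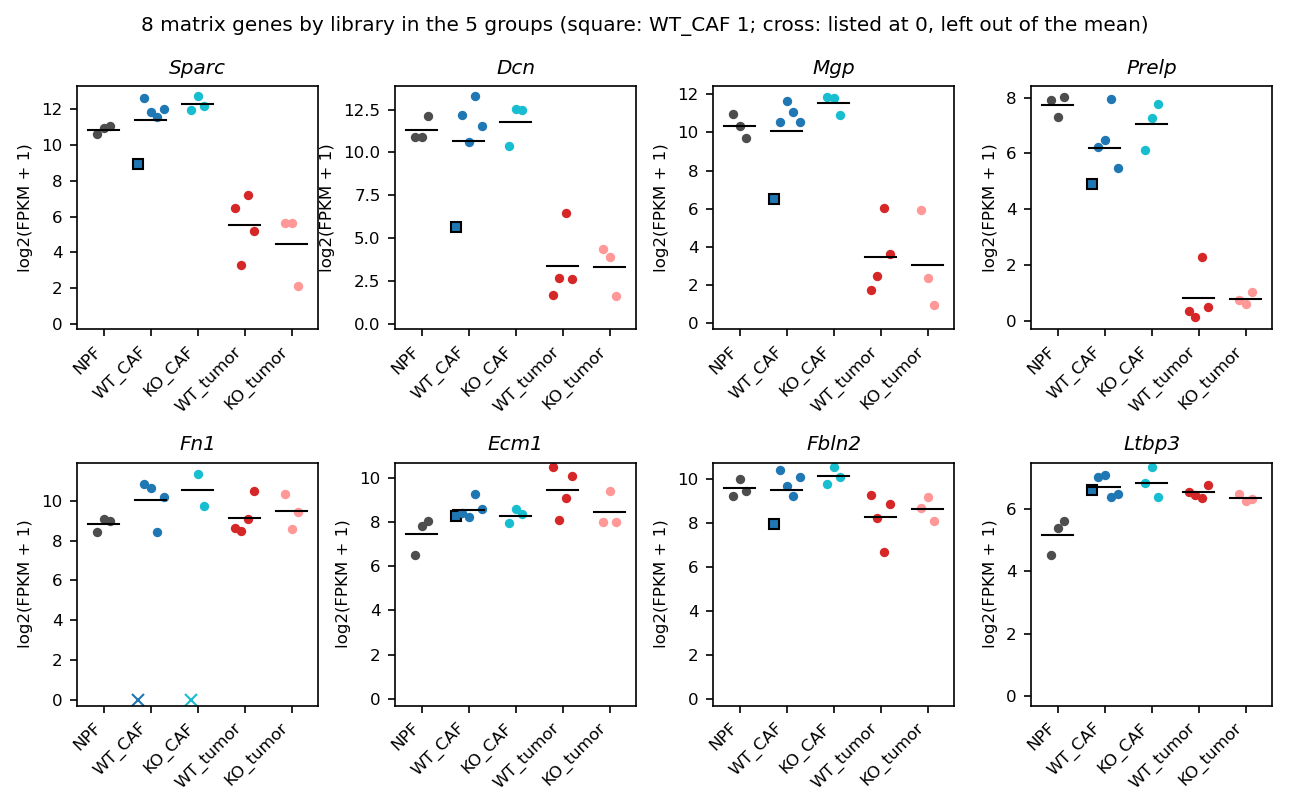
log2(FPKM + 1) of 8 of the 48 genes in each library, by group; each point is 1 library, the outlined square is WT_CAF 1, crosses are the Fn1 values listed at 0, and horizontal lines are group means without those. Sparc, Dcn, Mgp and Prelp (upper row) are separated between fibroblasts and tumor cells apart from Dcn in WT_CAF 1 and WT_tumor 3, while Fn1, Ecm1, Fbln2 and Ltbp3 (lower row) overlap.

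Levels in single tumor cell libraries were also set against the median fibroblast library of the same Saa3 genotype, leaving out WT_CAF 1. The median of the 48 genes was 1.55%, 1.10%, 5.94% and 1.56% of the fibroblast level in WT_tumor 1 to 4 and 2.13%, 1.61% and 1.08% in KO_tumor 1 to 3. Between 17 and 24 of the genes were under 1% of the fibroblast level in every tumor library except WT_tumor 3, where 2 were. The same median for the 7 fibroblast markers was 6.53% in WT_tumor 3, 0.947% in KO_tumor 1 and 0.178% to 0.634% in the other 5 libraries. WT_tumor 3 was the highest of its group for 28 of the 48 genes, and KO_tumor 1 of its own for 26. Ecm1 and Ltbp3 reached 50% of the fibroblast level in all 7 tumor cell libraries.

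The promoters of 2 genes lower in tumor cells (Prelp and Thbs2, the adhesive glycoprotein with the smallest p in Saa3-intact cells) and of 2 that did not differ past the threshold in either comparison (Ecm1 and Ltbp3) are shown so that their sequence can be set beside these values. The choice was made after the values were seen and was limited to genes with 1 start in the RefSeq promoter table of build GRCm38.p6, which is not the build named for the expression files. That table matched 35 of the 48 genes, with 47 windows. Each run gives the 250 bases before the start, 5′ to 3′ on the strand of the gene, and capitals mark the TATA motif TATAAA, the CCAAT box, the GC box GGGCGG and the AP-1 motif TGANTCA, searched on both strands. Prelp lies at chr1:133921402-133921651 on the minus strand, Thbs2 at chr17:14694263-14694512 (minus), Ecm1 at chr3:95739570-95739819 (minus) and Ltbp3 at chr19:5740650-5740899 (plus).
Prelp: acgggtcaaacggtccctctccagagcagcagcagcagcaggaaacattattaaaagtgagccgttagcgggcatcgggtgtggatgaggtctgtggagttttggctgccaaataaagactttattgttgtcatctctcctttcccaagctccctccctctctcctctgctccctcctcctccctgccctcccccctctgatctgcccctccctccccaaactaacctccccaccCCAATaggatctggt
Thbs2: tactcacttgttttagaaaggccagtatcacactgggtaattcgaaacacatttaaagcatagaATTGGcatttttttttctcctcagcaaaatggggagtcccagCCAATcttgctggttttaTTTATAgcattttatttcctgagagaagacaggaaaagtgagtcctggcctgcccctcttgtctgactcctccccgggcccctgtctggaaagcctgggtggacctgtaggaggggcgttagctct
Ecm1: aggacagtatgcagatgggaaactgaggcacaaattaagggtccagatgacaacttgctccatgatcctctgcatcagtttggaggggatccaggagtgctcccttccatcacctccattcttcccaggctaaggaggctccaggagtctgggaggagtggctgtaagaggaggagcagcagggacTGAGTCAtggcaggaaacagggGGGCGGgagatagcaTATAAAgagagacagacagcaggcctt
Ltbp3: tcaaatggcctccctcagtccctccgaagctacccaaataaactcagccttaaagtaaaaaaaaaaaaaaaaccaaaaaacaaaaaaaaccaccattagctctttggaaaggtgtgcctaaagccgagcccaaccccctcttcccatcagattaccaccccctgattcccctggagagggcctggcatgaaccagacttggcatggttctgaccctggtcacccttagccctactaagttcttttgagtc
Prelp held the CCAAT box, Thbs2 the CCAAT box and the TATA motif, Ecm1 the TATA motif, the GC box and the AP-1 motif, and Ltbp3 held none of the 4 motifs in this window. Emilin1, lower in tumor cells in both comparisons and not printed here, also has 1 start and held none of the 4. Over all 47 windows of the matched genes the GC box was present in 57.4%, against 32.7% of the 32851 windows of the whole table. The CCAAT box was present in 23.4% against 33.8%, the TATA motif in 17% against 12.4%, and the AP-1 motif in 6.38% (Ecm1, Efemp1 and Tnxb) against 6.75%. A match says only that these letters are in the window, and windows of 1 gene can overlap.

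In fibroblasts of tumors against those of normal pancreas, 1 of the 48 genes passed the test. Ltbp3, which tethers latent TGF-beta to the matrix, had levels of 22.0, 40.8 and 48.4 FPKM in NPF against 82.8 to 137 in WT_CAF, WT_CAF 1 included (96.5). The groups did not overlap, and Ltbp3 was higher in WT_CAF by 1.64 ± 0.33 (adjusted p = 0.0300). No gene was lower, against 0.277% higher and 0.673% lower among all genes tested, and the median of the 48 was -0.29. At an unadjusted p under 0.05, 2 of the 48 were higher (Ltbp3 and Fn1) and 2 lower (Prelp and Nid2), against 7.26% and 9.61% of all genes. For Fn1, whose zero in WT_CAF 1 was left out, the difference rests on WT_CAF 2 alone.

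These numbers depend on WT_CAF 1, since it and WT_CAF 2 are the only libraries that share the format of NPF, and the size of each difference rests on these 5 libraries. With the format term, a fit without WT_CAF 1 sets WT_CAF 2 alone against NPF. A fit without WT_CAF 2 sets WT_CAF 1 alone against NPF. The call for Ltbp3 was lost without NPF 1 or NPF 2 (adjusted p up to 0.0761) and with libraries scaled to an equal sum (0.0796). It was also lost with only NPF and WT_CAF in the fit (0.350) and within the libraries with no index (0.509). Without WT_CAF 1, WT_tumor 3 and WT_tumor 4 it was lost too, where the difference rests on WT_CAF 2 alone. Leaving out WT_CAF 1 moved the median of the 48 genes to 1.38. In that fit Ltbp3 differed by 1.85 and Thbs4, a thrombospondin of tendon and injured muscle, by 4.05 (1.91 ± 0.95 with WT_CAF 1). Leaving out WT_CAF 2 instead moved the median to -1.90 and gave 4 lower genes, Nid2, Dcn, Fmod and Podn (-5.65 to -3.43), beside Ltbp3, which was higher, against 5.45% lower and 4.45% higher among all genes in that fit, in which Fn1 could not be estimated. Without WT_CAF 1 and without the format term the median was 0.74 and 5 genes were higher (Thbs4, Mfap2, Ltbp3, Fbn2 and Emilin1) and 0 lower, against 3.87% and 2.93% of all genes.

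By library, NPF and WT_CAF did not overlap for 3 genes that were higher in WT_CAF, Ecm1, Ltbp3 and Tgfbi (5.13% of all genes), and for 0 that were lower (6.05%). Without WT_CAF 1 this was so for 15 of the 48 genes (11% of all genes) and again for 0 lower ones (10.2%). Of the elastic fibre and microfibril class these were Eln, Emilin1, Emilin2, Fbln1, Fbn2, Ltbp3, Mfap2, Mfap4 and Mfap5, and of the adhesive class Comp, Ecm1, Sparc, Tgfbi, Thbs2 and Thbs4. Thbs4 stood at 0.251, 0.462 and 1.42 FPKM in NPF, at 0.394 in WT_CAF 1 and at 26.3, 25, 7.91 and 13.1 in WT_CAF 2 to 5. WT_CAF 1 lay within the range of NPF and the 4 others lay above it. Mfap2 stood at 2.95, 21.0 and 35.3 FPKM in NPF, at 4.30 in WT_CAF 1 and at 161 to 245 in the others. Fbn2, the fibrillin of developing tissue, stood at 0.237, 1.60 and 4.58 in NPF, at 0.674 in WT_CAF 1 and at 5.20 to 18.4 in the others, so that the gap between NPF 3 and WT_CAF 4 was small. The ratio of Fbn2 to Fbn1 was 0.00717 to 0.0169 in NPF and 0.0235 to 0.0893 in WT_CAF.

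Other genes had large differences that did not pass. Fn1, with its zero in WT_CAF 1 left out, differed by 2.02 ± 0.79 (adjusted p = 0.232) and Eln by 1.55 ± 1.87, which was 5.41 without WT_CAF 1 and -2.32 without WT_CAF 2. Lower values in WT_CAF were found for Efemp1, a fibulin-like protein, at -2.54 ± 1.21, and for Ogn, Dcn and Prelp, at -2.46 ± 1.43, -2.39 ± 1.67 and -2.18 ± 0.74. Without WT_CAF 1, where WT_CAF 2 alone is set against NPF, Dcn had a difference of 0.88 and Ogn one of -0.02. Prelp kept its direction (-1.52 ± 0.92) at 240, 155 and 257 FPKM in NPF against 28.9, 73.2, 88.8, 247 and 43.4 in WT_CAF, where WT_CAF 4 lay inside the range of NPF. NPF 1 was the lowest NPF library for 34 of the 48 genes and NPF 3 the highest for 35. Acinar markers summed to 1083 to 40794 FPKM in the same libraries.

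**Figure D5:**
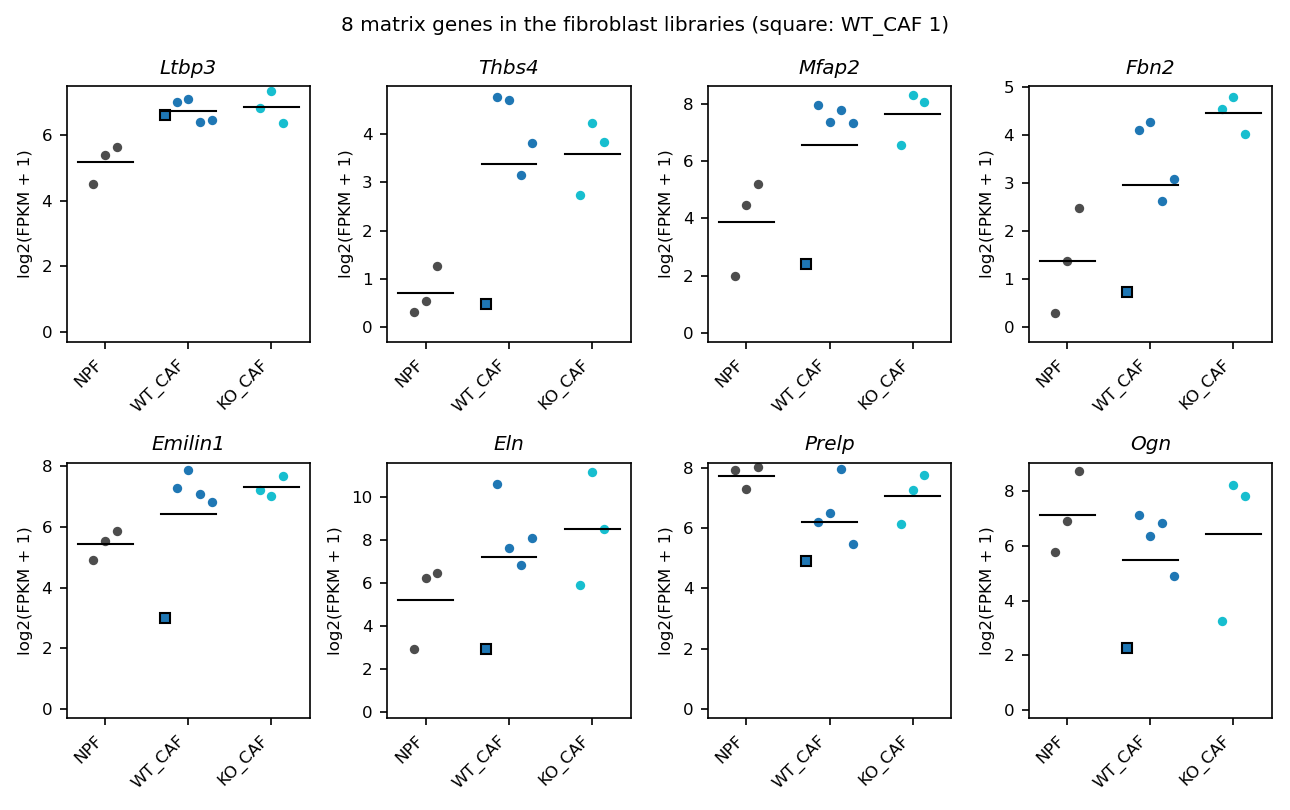
log2(FPKM + 1) of 8 of the 48 genes in the fibroblast libraries, by group; each point is 1 library, the outlined square is WT_CAF 1, and horizontal lines are group means. WT_CAF 2 to 5 lie above all NPF for Ltbp3, Thbs4, Mfap2, Fbn2, Emilin1 and Eln, WT_CAF 1 does so only for Ltbp3, and Prelp and Ogn overlap.

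Loss of Saa3 changed none of the 48 genes past the threshold in fibroblasts. No gene was higher or lower in KO_CAF than in WT_CAF, where limma called 1 gene higher (0.00748%) and 0 lower (0%) over all genes. At an unadjusted p under 0.05, 1 of the 48 was higher, Thbs1 at 1.02 ± 0.46, and 0 were lower, against 0.464% and 0.471% of all genes. Differences were above 0 for 33 of the 48 genes, against 48.6% of all genes, with a median of 0.31, which was -0.10 without KO_CAF 2. Thbs1 stood at 350, 670, 382, 169 and 244 FPKM in WT_CAF and at 318, 439 and 682 in KO_CAF, which overlap. With the format term, its difference of 1.02 does not use WT_CAF 1 and 2. Over all libraries its mean log2(FPKM + 1) was 8.84 in KO_CAF and 8.36 in WT_CAF. For no gene did the 2 groups separate completely (0.464% higher and 0.733% lower over all genes). Without WT_CAF 1 they did for Nid2 (1.38% of all genes lower), at 20.3 to 38.9 FPKM in WT_CAF 2 to 5 and 13.4 to 17.1 in KO_CAF.

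The largest positive differences in KO_CAF were those of Fbln5, an elastic fibre assembly protein (1.31 ± 0.94), Tnxb (1.23 ± 1.42), Aspn (1.05 ± 1.11) and Eln (1.03 ± 1.73), and the largest negative ones those of Tgfbi, a TGF-beta-induced integrin ligand (-1.20 ± 0.84), Nid2 (-0.98 ± 0.85), Vtn (-0.97 ± 1.21) and Thbs2 (-0.97 ± 0.88), all with adjusted p = 1. The precision differed between genes. The 95% interval was -0.57 to 0.72 for Ltbp3 and -1.03 to 1.90 for Prelp, but -1.61 to 3.10 for Sparc and -3.23 to 3.37 for Dcn, so for Dcn changes of several-fold in either direction lie within it. Within the 6-base and 16-base libraries the medians of the 48 were 0.03 and 0.63, with 0 genes passing in either.

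In tumor cells 0 of the 48 genes passed between KO_tumor and WT_tumor, as was so for 0% of all genes in both directions. Saa3 itself stood at only 4.10, 2.75 and 3.13 FPKM in WT_tumor 1, 2 and 4, and at 106 in WT_tumor 3. At an unadjusted p under 0.05, 1 gene was lower, Ecm1 at -1.05 ± 0.48, and 0 were higher, against 1.8% and 2.15% of all genes. Only 12 of the 48 differences were above 0, against 47.2% of all genes, with a median of -0.31. Without WT_tumor 3, where 6 of 7 fibroblast markers reached 1 FPKM, the median was -0.02, and it was -0.08 without KO_tumor 3. The 2 groups did not separate for any of the 48 (1.36% higher and 2.25% lower over all genes). Nid1 (-1.36 ± 0.77), Postn (-1.29 ± 1.41), Sparc (-1.14 ± 1.0) and Ecm1 had the largest negative differences, and Fn1 (0.41 ± 0.53), Fbln2 (0.35 ± 0.60), Mfap4 (0.32 ± 1.09) and Pcolce2 (0.31 ± 1.27) the largest positive ones. Postn stood at 0.964, 0.0871, 68.9 and 5.17 FPKM in WT_tumor and 1.41, 3.06 and 0.104 in KO_tumor, with the highest value in WT_tumor 3. Without WT_CAF 1, WT_tumor 3 and WT_tumor 4 its difference was 0.67.

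The effect of Saa3 loss was not shown to differ between tumor cells and fibroblasts for any of the 48 genes. The interaction gave 0 genes in both directions at the adjusted threshold (0% of all genes), and 0 at an unadjusted p under 0.05 (0.763% higher and 0.628% lower over all genes). Its largest values were -1.93 ± 1.15 for Nid1, -1.88 ± 1.5 for Sparc, -1.54 ± 2.12 for Postn and -1.36 ± 2.35 for Eln, and 0.56 ± 1.65 for Vtn, 0.54 ± 1.14 for Tgfbi, 0.41 ± 1.16 for Nid2 and 0.31 ± 1.11 for Fmod.

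Tumor fibroblast libraries varied widely among themselves. Over the 7 libraries other than WT_CAF 1 the highest value was a median of 6.79 times the lowest, and for 17 genes it was over 10 times. Comp, a cartilage thrombospondin, ranged 100-fold from 0.280 FPKM in KO_CAF 1 to 28.0 in KO_CAF 2, Pcolce2 78.3-fold, Tnxb 76.1-fold and Eln 40.1-fold, from 59.0 in KO_CAF 1 to 2365 in KO_CAF 2. KO_CAF 1 was the lowest of the 7 for 25 genes and KO_CAF 2 the highest for 26. These 2 libraries carry the same label and differed in other cell markers, with 212 and 2.62 FPKM of epithelial and 263 and 33.5 FPKM of macrophage markers. The part of this in the spread was not tested.

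Some genes had the opposite order in KO_CAF 1 and KO_CAF 2. Tgfbi was at 122 FPKM in KO_CAF 1 and at 16.3 in KO_CAF 2, and Tnc at 303 and 29.5. In WT_CAF 2 to 5, Tnc stood at 222, 638, 31.7 and 141 FPKM and Tgfbi at 56.1, 63.4, 49.5 and 128. The ratio of Tgfbi to Ogn (osteoglycin, a small leucine-rich protein) was 14.3 in KO_CAF 1, 4.43 in WT_CAF 5 and 0.0549 to 0.782 in the other 5 libraries. The ratio of Dcn to Bgn ran from 0.536 in KO_CAF 1 to 11 in WT_CAF 4. Fibroblast markers summed to 573 FPKM in KO_CAF 1 and 382 in KO_CAF 2, but single markers went both ways. Thy1 (172 against 48.8), Pdpn (164 against 67.9) and Twist1 (42.4 against 12.6) were higher in KO_CAF 1. Pdgfra (105 against 123), Pdgfrb (75.5 against 82.1), Fap (10.1 against 15.5) and Tcf21 (3.45 against 32.9) were lower there. The part of fibroblast content in these values was not tested.

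Genes that act on these proteins were followed in a list of 33: TGF-beta ligands and receptors, lysyl oxidases, enzymes that build glycosaminoglycan chains, integrin subunits and hyaluronan synthases. In WT_tumor 14 of them were lower than in WT_CAF and 1 higher, and in KO_tumor 17 were lower than in KO_CAF and 1 higher, against 12.5% lower and 9.05% higher among all genes in the first comparison and 15.4% and 13% in the second. The lysyl oxidases Lox, Loxl1, Loxl2 and Loxl3, which crosslink elastin and collagen, were lower in both comparisons. Lox fell by 6.94 ± 1.10 (adjusted p = 0.00106) and 7.54 ± 1.12 (adjusted p = 0.000583), from 34.8 FPKM in WT_CAF 1 and 248 to 1146 in the other tumor fibroblasts to 0.131 to 17.5 in tumor cells. The type II and type III TGF-beta receptors Tgfbr2 and Tgfbr3 fell by 4.01 ± 0.64 and 5.17 ± 0.76 in WT_tumor and by 3.17 ± 0.65 and 5.18 ± 0.77 in KO_tumor, and the ligands Tgfb2 and Tgfb3 were lower in both, by 1.84 to 2.35.

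Of the glycosaminoglycan chain enzymes, Chpf, Dse and Ext2 were lower in both comparisons, with Ext1 and Ndst1 in KO_tumor as well, among 12 tested. Itgb6, the epithelial integrin subunit that activates latent TGF-beta, was the 1 gene that was higher, by 1.57 ± 0.43 (adjusted p = 0.0191) and 2.53 ± 0.44 (adjusted p = 0.00121). It stood at 1.94, 2.91, 5.55 and 0.256 FPKM in WT_tumor and at 3.05, 6.52 and 5.54 in KO_tumor, against 0 to 0.317 in all fibroblasts, so WT_tumor 4 lay inside the fibroblast range. Itga8, an integrin subunit that binds fibronectin, was lower in WT_CAF than in NPF by 2.24 ± 0.23 (adjusted p = 0.000231), at 3.77, 4.15 and 6.31 FPKM in NPF and 0.0477 to 0.356 in all 5 WT_CAF. None of the 33 passed in the comparisons of knockout with intact cells or in the interaction.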

How the data were processed

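RNA of sorted mouse cells was sequenced from poly(A) libraries in 18 samples, per the labels' protocols. The deposited table gives FPKM per gene and library; per the submitters' processing notes the tools of the authors included TopHat2 2.0.10, Cufflinks 2.2.1 and Cuffnorm, with no role given. No source used here gives the annotation or the normalization between libraries, and mouse and human builds are both named. Read counts cannot be had from these values, so the depth of a library and the counting error of a value are unknown.

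From the FPKM values, log2(FPKM + 1) was computed for the 13369 of 23951 genes with at least 1 FPKM in at least 3 libraries. All 18 libraries entered 1 linear model (limma 3.58.1 in R 4.3.3, moderated with a mean trend, 11 residual degrees of freedom) with a term for group and a term for library format. The format was read from the index in the labels (5 libraries with no index, 8 with 6 bases, 5 with 16 bases). All p-values are two-sided and were adjusted over all 13369 genes by the Benjamini-Hochberg method. With the format term, the WT_CAF to NPF difference rests on WT_CAF 1 and 2, and the others on the indexed libraries. Fn1 at 0 in WT_CAF 1 and KO_CAF 1, against 341 to 1855 and 851 to 2629 in the rest of those groups, was treated as a missing value. Fold changes of low genes are understated on this scale. The script was tested on simulated data.

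Replicates are biological per the series' design, but their pairing with animals is not given, and replicate numbers follow the order of deposition. The comparisons of WT_CAF with NPF, KO_CAF and WT_tumor share the WT_CAF libraries. The genes described, their roles, the marker lists and the partner genes were chosen with earlier results of these data known. Genes named in each comparison were those past the threshold, up to the 12 with the smallest p, the 4 with the largest difference in each direction and the 3 most abundant of each group. Genes named beyond this were chosen after their values were seen. Alternatives were the pseudocount, the filter, the format term, the libraries fitted, the scaling, the Fn1 zeros and leaving out each library. Fits without WT_CAF 1 and the format term, and without WT_CAF 1, WT_tumor 3 and WT_tumor 4, were added after seeing the data.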

Additional observations from a re-analysis of the deposited data

Results flagged for a closer look

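Of 96 combinations of a gene and a group of 4 or 5 libraries, 17 held a library set apart from the rest by Dixon's criterion on log2(FPKM + 1). Chance gives this for about 1 in 20 groups. In 11 of the 17 the library was WT_CAF 1, always the lowest of its group. Its values on that scale were 2.87 for Sparcl1, 2.41 for Mfap2, 3.19 for Mfap4, 4.72 for Mfap5, 3.0 for Emilin1, 3.47 for Emilin2, 3.58 for Ltbp4, 0.33 for Nid2, 6.49 for Mgp, 1.77 for Fmod and 1.0 for Vtn. In FPKM, Mfap2 stood at 4.30 there against 161 to 245 in WT_CAF 2 to 5, and Nid2 at 0.258 against 20.3 to 38.9. The 7 fibroblast markers summed to 75.8 FPKM in this library against 231 to 522 in the others of its group.

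WT_tumor 3 was set apart as the highest of its group for 5 genes, with log2(FPKM + 1) of 3.99 for Thbs2, 0.63 for Fbn2, 2.18 for Emilin2, 2.30 for Prelp and 0.97 for Aspn. Thbs2 stood at 14.9 FPKM there against 0.712 to 1.39 in the other WT_tumor libraries, and Prelp at 3.93 against 0.103 to 0.406. The same library had the highest count of fibroblast markers at 1 FPKM or more among tumor cells. The part of the markers in these values was not tested. In WT_tumor 4, Tnc was set apart at 5.53 on the log2 scale, or 45.3 FPKM against 55.3 to 56.7, a small gap beside 3 nearly equal values.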

How the results depend on the processing

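No paired analysis was possible because the labels give no replicate numbers that tie samples of different groups together.

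The lower levels in tumor cells kept their direction for the median of the 48 genes under every alternative run, while the number of genes passing went up or down with the setting. With only the groups compared in the fit, 18 of the 48 were lower in WT_tumor (238 genes higher and 504 lower over all). Within the 6-base libraries 18 were lower in WT_tumor (272 and 737 over all), and over all genes 493 were higher and 1174 lower in KO_tumor. Within the 16-base libraries 0 passed, members and all genes alike, in both comparisons, at 1 residual degree of freedom. With no filter the calls for Tnxb, Fbln5, Ltbp2, Vcan and Aspn in WT_tumor and for Vtn in KO_tumor were lost, and scaling to equal sums lost that for Ltbp2 in WT_tumor. A pseudocount of 0.1 moved the medians to -5.08 and -5.40. Leaving out 1 library gave 20 to 37 lower and 0 to 1 higher members in WT_tumor (435 to 1554 higher and 758 to 2003 lower over all), and 34 to 38 lower members in KO_tumor (893 to 1520 and 1308 to 1956 over all).

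The comparison of WT_CAF with NPF also changed with the setting. Over all genes it gave 59 higher at a pseudocount of 0.1, 197 lower with no filter, 23 higher and 36 lower with a filter at 5 FPKM, 122 and 184 without the format term, 1 and 1 with only these groups, 23 and 47 after scaling to equal sums, 1 and 0 within the libraries without index, 518 and 392 without WT_CAF 1 and the format term, and 80 and 52 without WT_CAF 1, WT_tumor 3 and WT_tumor 4 (median of the members 1.38). Members higher were 0 with only these groups, after scaling and within the libraries without index, and 5 without WT_CAF 1 and the format term. Leaving out 1 library gave 8 to 595 higher and 38 to 729 lower genes, 0 to 2 higher and 0 to 4 lower members, and medians from -1.90 to 1.38. Scaling to equal sums moved the median of all genes to 0.21 here and to 0.24 and 0.11 in WT_tumor and KO_tumor against fibroblasts; no direction of a named gene turned under it.

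No member passed in the Saa3 comparisons or the interaction under any alternative. Over all genes, KO_CAF against WT_CAF gave 0 higher with only these groups and within either index format, 3 lower without WT_CAF 1 and the format term, 1 lower without the 3 doubted libraries, and 1 to 2 higher and 0 to 1 lower with 1 library left out. KO_tumor against WT_tumor gave 4 higher and 1 lower with no filter, 1 lower within the 6-base libraries, 1 higher and 3 lower without the 3 libraries, and 0 to 1 higher with 1 left out. The interaction gave 1 lower without the format term, with or without WT_CAF 1, 1 higher without the 3 libraries, and 0 to 1 lower with 1 left out.

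Directions turned only for differences that did not pass in the fit of all 18 libraries, and the cause was not tested. With the Fn1 zeros used as listed, Fn1 was -3.41 in WT_CAF against NPF and 2.44 in KO_tumor against KO_CAF. Dcn in WT_CAF against NPF was 0.60 without WT_CAF 1 and the format term and 0.88 without the 3 libraries. In KO_CAF, Nid2 was 0.14 without the format term and Aspn -0.44 within the 6-base libraries. In KO_tumor against WT_tumor, Mfap4 was -0.23 within the 6-base libraries, Fn1 -0.0189, Fbln2 -0.0563 and Postn 1.05 within the 16-base ones, and Fbln2 -0.0256 and Postn 0.67 without the 3 libraries. Against fibroblasts, Ltbp3 was 0.11 and Thbs1 0.0276 in WT_tumor within the 16-base libraries, and Ecm1 -0.27 in KO_tumor within the 6-base ones. In the interaction, Nid2 was -0.14 and Fmod -0.41 at a pseudocount of 0.1, Vtn -0.0938, Tgfbi -0.26, Nid2 -0.74 and Fmod -0.0702 without the format term, and Postn 0.17 without the 3 libraries. Leaving out WT_CAF 1 or WT_CAF 2 sets the other alone against NPF. With 1 library left out, signs turned in WT_CAF against NPF for Thbs4 (-0.24 to 4.05), Eln (-2.32 to 5.41) and Dcn (-5.65 to 0.88). They turned for Eln in KO_CAF (-0.23 to 2.25), for Fbln2 (-0.13 to 0.65), Mfap4 (-0.13 to 0.72), Pcolce2 (-0.20 to 0.93) and Sparc (-1.92 to 0.0334) in KO_tumor against WT_tumor, for Ltbp1 (-0.29 to 1.24) and Ecm1 (-0.20 to 0.48) in KO_tumor against KO_CAF, and for Vtn (-0.22 to 1.41), Tgfbi (-0.18 to 1.26) and Fmod (-0.34 to 1.29) in the interaction. Low FPKM values have unknown counting error, which limits the genes under 1 FPKM in tumor cells.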
